A study of Homo sapiens with 18 samples.

Results

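The transcription factor MYC and 34 nucleolar and ribosome assembly genes were followed as a named list through 18 RNA libraries. The cells were MEG-01 (spelled Meg01 in the labels), an established line grown from a human megakaryoblastic leukemia. All 35 members were found among the 20833 gene identifiers of the count table, and all 35 passed the filter on low counts, which kept 12262 genes. Cells of genotype WT, called unedited here, and cells of genotype ETV6-KO, called knockout, each received a lentivirus that was empty (EV), carried ETV6 or carried ETV6 with R369W, and were taken on day 3. Each of the 6 groups of genotype by vector held 3 libraries. The study asks how the R369W change alters ETV6, an ETS-family repressor of transcription, and the question put to these genes is whether their RNA moved with the genotype or with the vector. The sources used here do not give whether the knockout cells are 1 clone or a pool, or which promoter drives the vectors. The labels attach the replicate number to the cells and do not say whether it marks a separate culture or clone. The p-values therefore measure the spread between these libraries, which may be technical.

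Ribosomes are built in the nucleolus, where RNA polymerase I transcribes the precursor of the large ribosomal RNAs. Small nucleolar ribonucleoproteins (snoRNPs) guide the methylation and pseudouridylation of that precursor, and assembly factors fold it, cut it and pack it with ribosomal proteins into a small and a large subunit. MYC, paired with MAX, binds the E-box sequence near the start of many of these genes and raises their transcription in growing blood cells, and high MYC is common in leukemias. In megakaryocytes MYC is known to fall as cells leave the cell cycle and mature.

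Promoter sequence was examined because these genes are textbook MYC targets and the vectors carry an ETS factor. RefSeq promoter windows (GRCh38.p14, 300 bases, from 250 before to 50 after a gene's start) were matched by symbol for 28 of the 35 members. None was used for MYC, NOP58, RRP12, BOP1, RRS1, RRP1B and NOLC1. The E-box CACGTG, which reads the same on both strands, was in a window of 15 of the 28 members (53.6%), against 8.77% of the 27305 genes with windows of this length. The ETS core CCGGAAG, searched on both strands (CTTCCGG on the other), was in 10 of the 28 (35.7%), against 12.2% of those genes. FBL, RRP9 and UTP4 held both motifs in the same window, and DDX21 and GAR1 held them in separate windows of different starts. DKC1, NCL, NHP2, NOP56, NPM1, POLR1A, WDR12 and WDR75 held neither. A match describes these letters only and does not show binding. The 27305 genes were not limited to those tested here, or to genes as abundant as the members. In NOP16 a pair of ETS matches on opposite strands overlapped. The 4 stretches below run 5′ to 3′ on the gene's strand and end 30 bases after the start. RRP9 and UTP4 are shown for carrying both motifs, UTP20 for an E-box alone, and WDR12, a member that changed, for carrying neither. Capitals mark CACGTG and CCGGAAG or CTTCCGG.
RRP9 (chr3:51941875-51942154, minus strand): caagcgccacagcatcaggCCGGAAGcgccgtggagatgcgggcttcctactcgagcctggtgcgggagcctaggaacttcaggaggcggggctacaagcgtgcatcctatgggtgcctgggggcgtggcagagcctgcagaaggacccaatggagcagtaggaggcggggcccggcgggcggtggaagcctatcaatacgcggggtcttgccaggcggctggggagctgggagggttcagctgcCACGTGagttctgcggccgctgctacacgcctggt
UTP4 (chr16:69132399-69132678, plus strand): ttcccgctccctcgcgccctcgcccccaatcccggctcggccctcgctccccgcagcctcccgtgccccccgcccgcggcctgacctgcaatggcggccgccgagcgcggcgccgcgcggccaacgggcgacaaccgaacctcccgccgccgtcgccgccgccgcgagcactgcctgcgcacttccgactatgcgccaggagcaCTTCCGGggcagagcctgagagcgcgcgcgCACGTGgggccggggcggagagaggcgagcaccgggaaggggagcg
UTP20 (chr12:101279855-101280134, plus strand): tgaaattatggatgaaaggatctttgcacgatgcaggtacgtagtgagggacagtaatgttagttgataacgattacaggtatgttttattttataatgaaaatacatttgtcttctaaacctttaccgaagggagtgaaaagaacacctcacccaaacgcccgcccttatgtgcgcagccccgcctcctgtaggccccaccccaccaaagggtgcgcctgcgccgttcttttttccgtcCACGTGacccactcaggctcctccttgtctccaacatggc
WDR12 (chr2:202911644-202911923, minus strand): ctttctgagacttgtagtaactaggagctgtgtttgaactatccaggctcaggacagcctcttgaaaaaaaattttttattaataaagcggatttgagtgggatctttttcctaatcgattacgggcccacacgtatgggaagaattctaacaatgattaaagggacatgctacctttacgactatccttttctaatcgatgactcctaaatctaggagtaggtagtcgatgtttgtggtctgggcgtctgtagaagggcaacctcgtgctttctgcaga

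Libraries held 12577816 to 18927506 reads in genes, and the unaligned share was higher with EV (0.527% to 0.809%, 6 libraries) than with the other vectors (0.279% to 0.349%, 12 libraries). ETV6 RNA was 66.0 to 145 CPM (reads scaled to a common library size, with TMM) in unedited EV cells, 39.1 to 117 CPM in knockout EV cells and 1351 to 2829 CPM in the 12 libraries with a vector that carried it. Counts per gene show neither an edit nor which ETV6 is transcribed, so they do not check the knockout label. Of 17 megakaryocyte markers, 10 to 13 reached 1 CPM in a group, and PF4 had 0 reads in every group. Knockout R369W replicate 2 stood apart: it held the highest of the 18 values for 11 of the 35 members (31.4%, against 17.6% of all genes tested) and the lowest for MYC. Several of the results that rest on it, but not all, are given with and without it. In the median deviation of members from their group means, other libraries lay as far out. That deviation was 0.10 on the log2 scale in knockout R369W replicate 2, and -0.11 in unedited ETV6 replicate 4 and in unedited R369W replicate 4. Over all genes, same-numbered libraries deviated together across vectors in unedited cells and between EV and ETV6 in knockout cells. Knockout R369W libraries did not deviate with their same-numbered partners. A blocked fit, in which libraries are compared within their replicate number, was therefore made. It took the 9 unedited libraries and, apart, the 6 knockout EV and ETV6 libraries. Among the 35 members alone the pairing was less even. Same-numbered deviations correlated at 0.21 to 0.832 in unedited cells, where different numbers reached 0.724. For knockout EV and ETV6 libraries 1, 2 and 4 they correlated at 0.191, -0.018 and 0.78, and different numbers reached 0.345.

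Most of the list was among the abundant RNAs of these cells. Per kilobase of exon, the mean level over the 18 libraries was 592 CPM for NPM1, 362 for NCL, 350 for FBL and 232 for MYC, each above at least 99.1% of the genes tested. The lowest member on this scale was UTP20, at 8.76 CPM per kilobase, above 59.9% of genes. Members were also steady. The coefficient of variation (SD over mean) of CPM over the 18 libraries had a median of 9.83% among members, against 16.9% over all genes tested, and 12.3% over the 5215 genes whose mean CPM was at least that of the lowest member. GNL3, a nucleolar GTPase, varied least (5.62%), and BOP1 (23.2%) and MYC (20.8%) varied most.

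**Figure D1:**
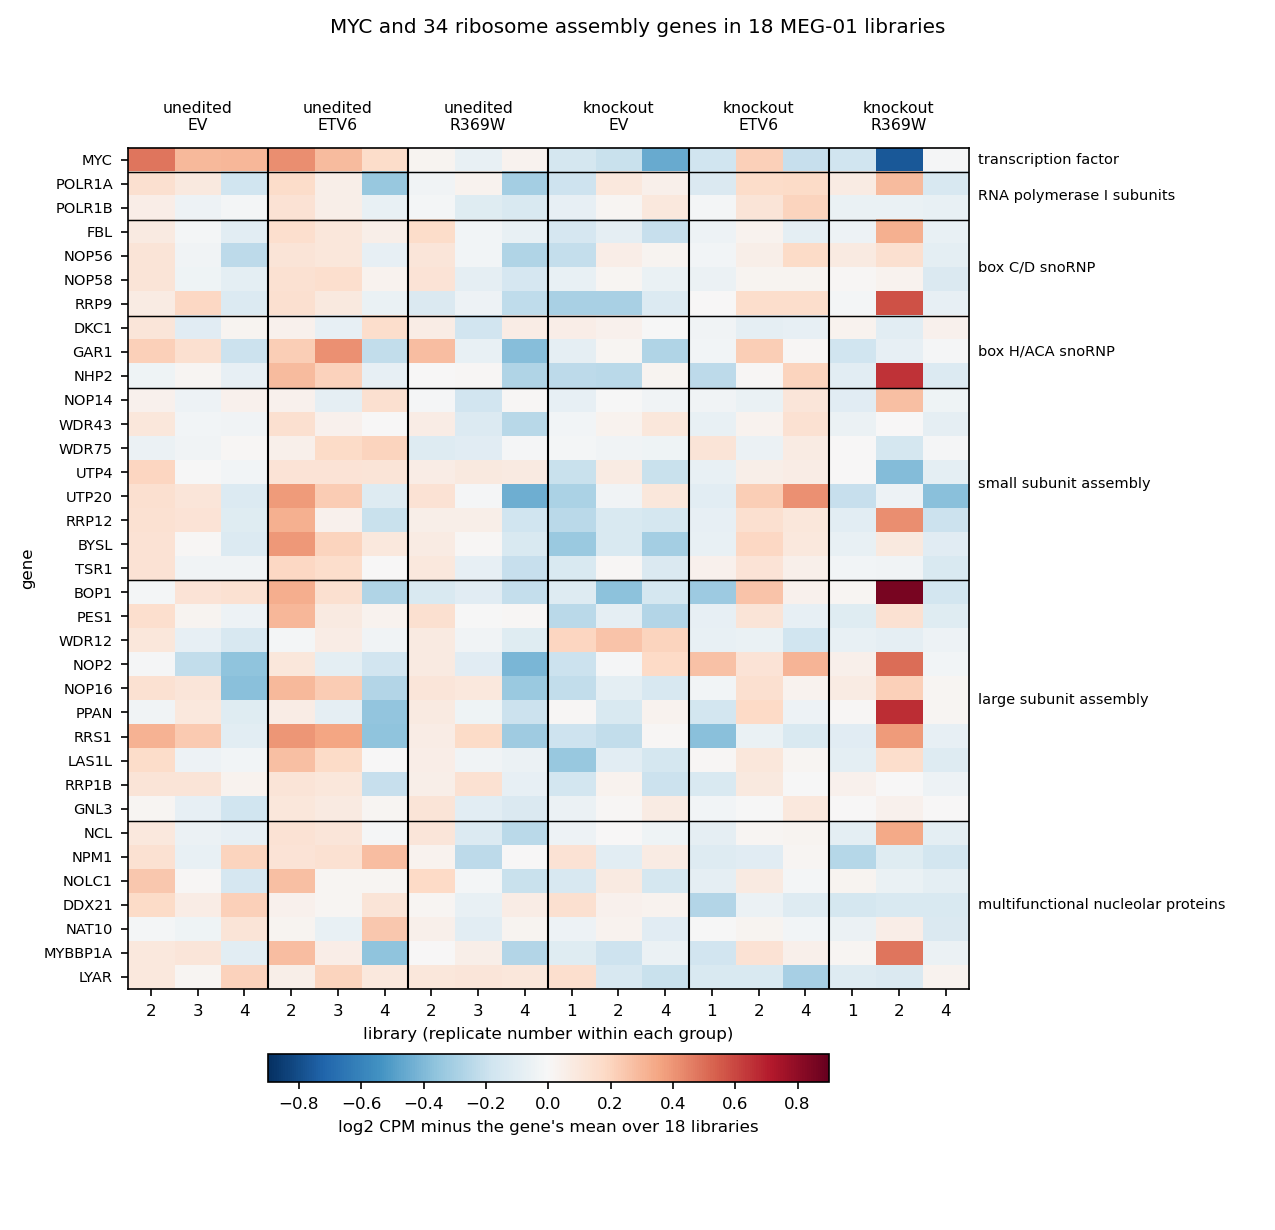
Heat map of the 35 members (rows, ordered by role) in the 18 libraries (columns, 3 per group, replicate number below). Colour is the log2 CPM minus the gene's mean over 18 libraries, red above and blue below. MYC runs from red in unedited EV and ETV6 cells to blue in knockout EV cells, and knockout R369W replicate 2 holds the darkest cells of several rows.

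MYC (ENSG00000136997, GRCh38 chromosome 8, 127735434 to 127741434, plus strand) was highest in unedited EV and ETV6 cells and lower in knockout EV cells. Its values were 953, 836 and 838 CPM in unedited EV libraries 2, 3 and 4, and 612, 593 and 497 CPM in knockout EV libraries 1, 2 and 4. Every knockout EV library lay below every unedited EV library. MYC fell 1.54-fold (log2 difference -0.63, SE 0.16, edgeR quasi-likelihood test, adjusted p = 0.0375). The call was lost without any of the 6 libraries in turn (adjusted p = 0.0582 to 0.184), while the log2 difference stayed between -0.69 and -0.54. Over the 6 groups the means were 876 ± 66.9 CPM in unedited EV, 835 ± 72.6 in unedited ETV6, 680 ± 25.0 in unedited R369W, 661 ± 111 in knockout ETV6, 567 ± 61.8 in knockout EV and 560 ± 142 in knockout R369W cells (SD, n = 3 each). Of the neighbours in this order, unedited EV and ETV6 did not pass the test (log2 -0.07, SE 0.16, edgeR adjusted p = 1), and the SDs of unedited R369W and knockout ETV6, and of knockout EV and R369W, overlapped.

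With R369W, unedited cells held less MYC than with either other vector. The libraries numbered 2, 3 and 4 gave 692, 652 and 697 CPM with R369W and 910, 831 and 765 CPM with ETV6, and all 3 R369W values lay below the 3 of ETV6 and the 3 of EV. Without a block neither difference passed (against EV log2 -0.36, SE 0.16, edgeR adjusted p = 1, and against ETV6 -0.30, SE 0.16, adjusted p = 0.651). With the block MYC fell by 0.36 against EV (SE 0.06, adjusted p = 0.00175) and by 0.29 against ETV6 (SE 0.06, adjusted p = 0.00172). Differences between same-numbered libraries against EV were -0.46, -0.36 and -0.27 on the log2 scale. Without number 3, both blocked calls were lost, at adjusted p = 0.107 and 0.0909.

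In knockout cells the vectors gave a wider scatter of MYC. ETV6 libraries 1, 2 and 4 held 603, 790 and 592 CPM, and R369W libraries 603, 401 and 676 CPM, so both sets overlapped the EV values. With ETV6 the difference from EV was 0.22 without a block (SE 0.16, edgeR adjusted p = 0.629), and with the block MYC rose by 0.22 (SE 0.07, adjusted p = 0.0441), although library 1 differed by -0.02 from its EV partner. That blocked call was lost without number 2 or number 4, where the log2 difference was 0.11 and 0.20. R369W against EV gave -0.02 (SE 0.16, adjusted p = 0.988), which turned to 0.17 without R369W replicate 2, and also turned above 0 without EV replicate 1 (0.04) or 2 (0.01). Between genotypes MYC differed by -0.34 under ETV6 (SE 0.16, adjusted p = 0.286) and by -0.28 under R369W (SE 0.16, adjusted p = 0.317; -0.09 without knockout R369W replicate 2). The effect of ETV6 on MYC in knockout minus that in unedited cells was 0.29 (SE 0.22, adjusted p = 1). The same contrast for R369W was 0.35 (SE 0.22, adjusted p = 1), and 0.19 to 0.54 with 1 library left out.

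**Figure D2:**
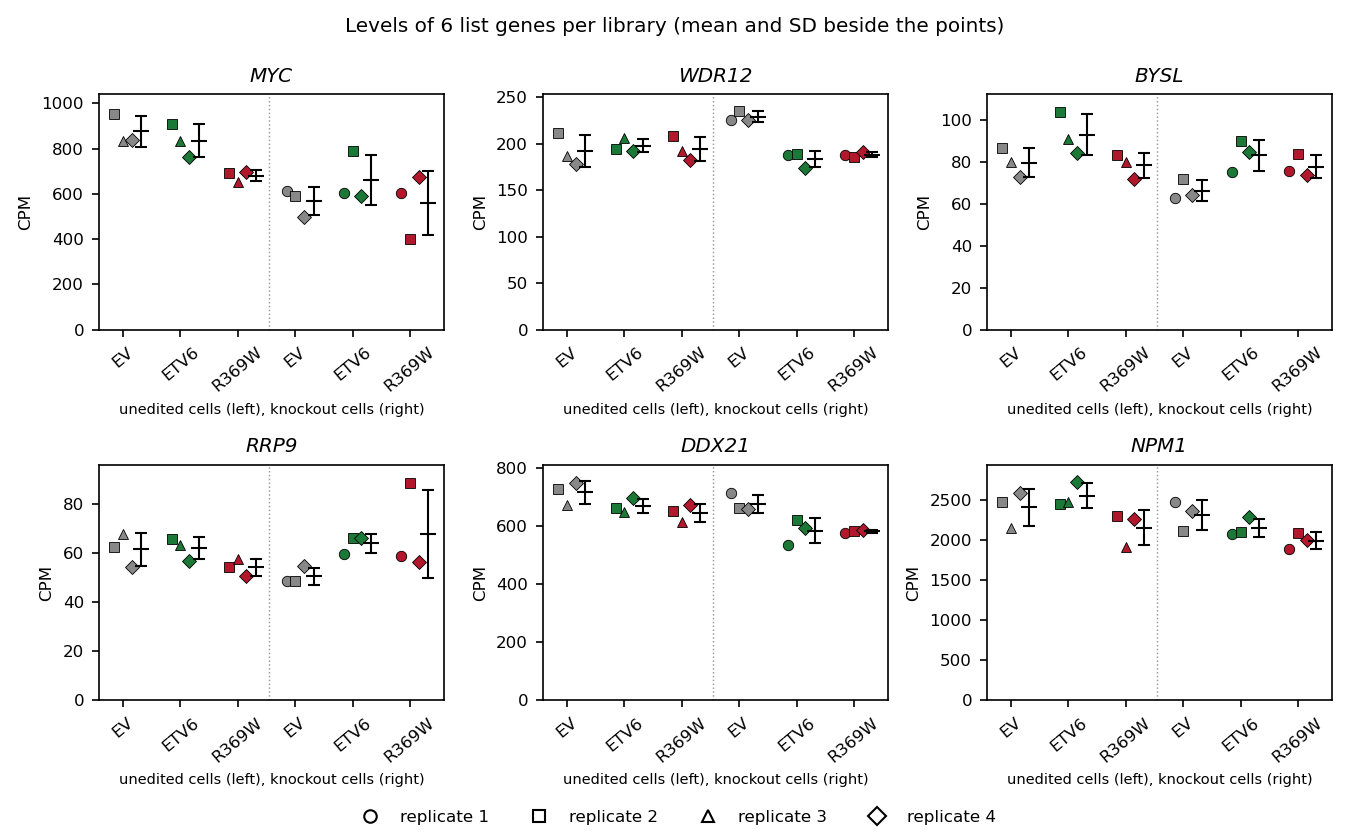
CPM per library (points, shaped by replicate number) with mean and SD (bars) of MYC, WDR12, BYSL, RRP9, DDX21 and NPM1 in the 6 groups, unedited left and knockout right of the dotted line. MYC sits at 836 to 953 CPM in unedited EV and 497 to 612 CPM in knockout EV libraries, and WDR12 at 225 to 235 CPM in knockout EV libraries, above the other 15.

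Most members lay slightly higher in unedited cells with ETV6 than with EV. Of the 35, 29 had a log2 difference above 0 against EV and the median was 0.06, against 51.8% of all genes above 0 and a median of 0.01. Leaving out EV library 2 gave a members' median of 0.12, leaving out ETV6 library 4 gave 0.13, and leaving out EV library 4 or ETV6 library 2 gave 0.03. Without a block edgeR called 0 members (DESeq2 0), against 0.302% of all genes. At an unadjusted p under 0.05 2 members were higher, against 4.58% of genes in either direction. With the block 1 member rose, BYSL, against 2.66% of 11733 genes higher and 5.49% lower. BYSL, which works with the maturing small subunit, held 86.6, 79.9 and 72.8 CPM in EV and 104, 90.9 and 84.5 CPM in ETV6 libraries 2, 3 and 4. Each ETV6 library exceeded its same-numbered partner, by 0.26, 0.19 and 0.22 on the log2 scale, although the groups overlapped (blocked log2 0.22, SE 0.06, edgeR adjusted p = 0.025). Without number 4 the blocked fit called NHP2 and not BYSL, and without number 2 or 3 it called no member. All 3 ETV6 libraries lay above all 3 EV libraries for WDR75 and GNL3, 2 of 35 members, against 4.15% of genes.

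With R369W most members lay slightly lower than with EV in unedited cells, but 1 library decided the median. The log2 difference was below 0 for 29 of 35 members, with a median of -0.05, against 50.2% of genes and a median of -0.00. Without R369W replicate 4 the members' median was 0.0015, and without EV replicate 2, EV replicate 4 or R369W replicate 2 it was -0.03, -0.09 and -0.10. edgeR called 0 members without a block (2 lower at an unadjusted p under 0.05, against 2.02% of genes either way, and DESeq2 called 0), against 0.0245% of genes. With the block it called MYC alone, which fell, against 0.349% of genes lower. DDX21, an RNA helicase of polymerase I transcription, held 728, 674 and 748 CPM in EV and 653, 614 and 674 CPM in R369W libraries. The highest R369W value lay just under the lowest EV value (log2 -0.15, SE 0.07, adjusted p = 1, and 0.119 with the block). MYC, BOP1 and DDX21, 3 of 35, had all R369W below all EV values, against 3.29% of genes.

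Between the vectors in unedited cells the members lay lower with R369W than with ETV6, and more of them passed than in either comparison with EV, a difference in counts that was not tested. The difference was below 0 for 33 of 35 (53.1% of all genes), with a median of -0.11 (-0.01 over all genes). Leaving out 1 library gave a median of -0.19 to -0.08, with -0.18 without ETV6 replicate 4 and -0.19 without R369W replicate 2. Only PPAN and RRP1B were above 0. Without a block edgeR called 0 (3 lower at an unadjusted p under 0.05, against 8.99% of genes either way, and DESeq2 called 0), against 1.20% of genes. With the block 9 members fell and 0 rose, against 6.67% of genes lower and 10.2% higher. They were MYC, the snoRNP protein NHP2, the small subunit factors UTP20, BYSL, WDR75, TSR1 and WDR43, and the abundant nucleolar proteins NPM1 and NCL. Their log2 differences ran from -0.29 to -0.16. The largest adjusted p was that of NCL (0.0465). The count was 9 without number 2 and 7 without number 4, and 0 members passed without number 3. MYC, WDR75, UTP4, BYSL and NPM1, 5 of 35, had all R369W below all ETV6 values, against 5.51% of genes.

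In knockout cells with ETV6 10 members rose and 2 fell against EV when same-numbered libraries were compared. The difference from EV was above 0 for 29 of 35 (49.7% of all genes), with a median of 0.09 (-0.00 over all genes). Leaving out 1 library gave a median of 0.06 to 0.15, with 0.14 without EV replicate 2 and 0.15 without ETV6 replicate 1. Without a block 1 member passed, WDR12, which fell, against 1.57% of genes lower and 0.253% higher. The blocked counts stand against 10.8% of 11764 genes higher and 13.9% lower, so 12 of 35 passed against 24.7% of genes. RRP9, BYSL, UTP20, LAS1L, NOP2, RRP12, MYC, NOP16, PES1 and TSR1 rose, by 0.34 for RRP9 down to 0.15 for TSR1, and WDR12 and DDX21 fell. The blocked count was 11 without number 1, 12 without number 2 and 2 (RRP9 and WDR12) without number 4. Without a block RRP9, RRP12, BYSL, TSR1, PES1, NOP16 and LAS1L, 7 of 35, had all ETV6 above all EV values, against 9.41% of genes, and DKC1, WDR12 and DDX21, 3 of 35, had all below, against 11.7%.

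**Figure D3:**
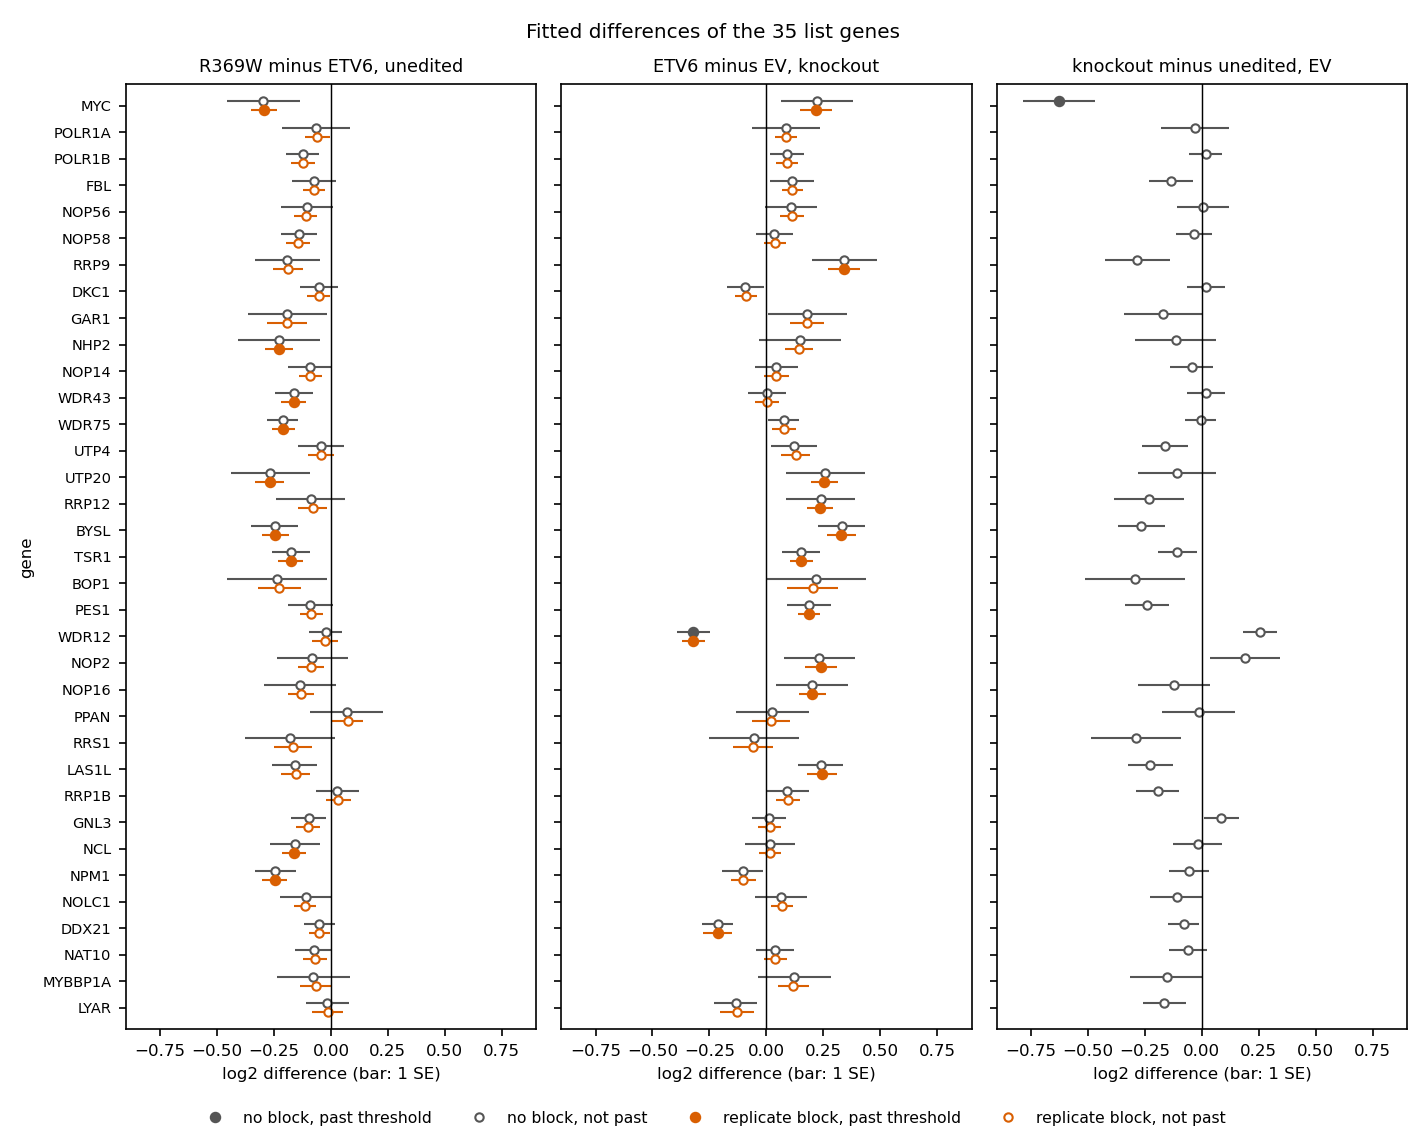
Fitted log2 difference (point) with 1 SE (bar) of each of the 35 members in 3 comparisons, without a block (grey) and blocked by replicate number (orange, where the numbers paired the libraries). Filled points passed an adjusted p of 0.05. The left panel lies mostly below 0 and the middle panel mostly above 0, and in the right panel MYC alone is filled.

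R369W in knockout cells gave no member past the threshold in the edgeR fit without a block, where ETV6 against EV gave 1. R369W libraries were left out of the blocked fit above because same-numbered libraries did not pair. Each correlated instead with a differently numbered EV and ETV6 library, a pairing that no fit used. The blocked counts for ETV6 therefore have no counterpart here. R369W and ETV6 were compared with the same knockout EV libraries. Against EV edgeR called 0 (4 higher and 3 lower at an unadjusted p under 0.05, against 13.8% of genes either way), against 0.0571% of genes, while DESeq2 called 2 lower, WDR12 and DDX21. The median was 0.09, with 23 of 35 above 0 (49.6% of genes), 0.02 without R369W replicate 2 and 0.04 without EV replicate 1. FBL, RRP9, BYSL and NOP16, 4 of 35, had all R369W above all EV values, against 8.93% of genes, and WDR12, NPM1 and DDX21, 3 of 35, had all below, against 9.75%. Against ETV6 edgeR called 0 (2 lower at an unadjusted p under 0.05, against 12.4% of genes either way, and DESeq2 called 0), against 1.23% of genes, with a median of -0.01. That median was -0.08 without R369W replicate 2 and -0.05 without ETV6 replicate 1, and it lay above 0, at up to 0.03, without any of the other 4 libraries. LYAR lay above in all libraries (8.78% of genes), and POLR1B and TSR1, 2 of 35, lay below (7.57%).

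Knockout and unedited EV cells differed most in MYC. Of the 35 members 28 were below 0 (50.5% of genes), with a median of -0.11 (-0.00 over all genes; -0.06 without unedited EV replicate 2). In the fit without a block MYC was the only member called, against 1.02% of genes lower and 3.31% higher. DESeq2 called MYC and WDR12. Besides MYC, RRP12, BYSL, BOP1, PES1 and LAS1L had all knockout below all unedited EV values, 6 of 35 against 9.86% of genes, and WDR12 alone lay above in all libraries, against 12.6%. Under ETV6, 28 of 35 were again below 0 (51.0% of genes), with a median of -0.09, which was -0.04 without unedited ETV6 replicate 2 or knockout ETV6 replicate 1. edgeR called 0 (3 lower at an unadjusted p under 0.05, against 17.7% of genes either way, and DESeq2 called 0), against 2.53% of genes. There 7 of 35 had all knockout below all unedited values (FBL, NOP58, UTP4, WDR12, NPM1, DDX21 and LYAR), against 11.1% of genes, and NOP2 alone had them above, against 11.5%. Under R369W the members lay on both sides of 0 (20 of 35 above, 50.3% of genes; median 0.02, and -0.03 to 0.09 with 1 library left out: below 0 without knockout R369W replicate 2 or unedited R369W replicate 4, and moved by over 1.5 times also without unedited R369W replicate 2 or 3 or knockout R369W replicate 4). edgeR called 0 there (1 higher and 2 lower at an unadjusted p under 0.05, against 22.0% of genes either way, and DESeq2 called 0), against 4.18% of genes. UTP4, DDX21 and LYAR, 3 of 35, had all knockout below all unedited R369W values, against 10.9% of genes.

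Markers of red cell precursors moved with the genotype beside these results. Of 10 erythroid markers all 10 had reads in every group, all 10 were below 0 in each of the 3 knockout against unedited comparisons, and 1 passed the test in each. Their summed level was 1586 to 2877 CPM in unedited EV and 396 to 1346 CPM in knockout EV libraries. Their part in the difference of MYC and the other members was not tested. The summed level of 17 cell division genes was 4240 to 5104 CPM in unedited EV and 4057 to 4852 CPM in knockout EV libraries, overlapping. Of the 17, 14 lay below 0 in knockout against unedited cells under EV, 14 under ETV6 and 15 under R369W. Their medians were -0.10, -0.10 and -0.06, against -0.00, -0.01 and 0.00 over all genes. MCM7, a subunit of the replicative helicase, was the 1 gene of the 17 called lower under EV (log2 -0.26, SE 0.07, edgeR adjusted p = 0.0463). The part of cell division genes in the members' differences was not tested. In RNA from whole cultures, fewer cells of a type and less RNA per cell cannot be told apart. Among other markers under EV, FLI1, a megakaryocyte transcription factor, was higher in knockout cells (log2 1.36, SE 0.35, edgeR adjusted p = 0.0405). The 14 megakaryocyte markers tested had no shared direction there: 9 were above 0 and 5 below, from -1.57 to 3.01. The summed level of 7 B-lymphoid markers was 1.51 to 2.65 CPM in unedited and 11.0 to 16.6 CPM in knockout libraries, with CD79A higher and MS4A1 and EBF1 at 0 in both. Of 5 myeloid markers tested, CEBPA was higher and LYZ lower in knockout cells under each vector, and CSF3R was higher under EV. The part of these markers in the genotype comparisons was not tested either. Myeloid markers also moved with the vector: of 9, the defining MPO and ELANE were at 0 reads in all unedited groups, and their summed level was 205 to 220 CPM in unedited ETV6 against 592 to 643 CPM in unedited R369W libraries. Their part in the vector comparisons was not tested.

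No member passed the tests of whether a vector acted differently in the 2 genotypes. These comparisons share their control libraries with those above. For ETV6, edgeR called 0 (1 lower at an unadjusted p under 0.05, against 1.90% of genes, and DESeq2 called 0), against 0.0245% of genes. For R369W it called 0 (2 higher and 1 lower at an unadjusted p under 0.05, against 4.24% of genes, and DESeq2 called 0), against 0.0408% of genes, and for R369W against ETV6 it called 0 (0 at an unadjusted p under 0.05, against 1.01% of genes, and DESeq2 called 0), against 0.00% of genes. WDR12 had the smallest p for ETV6 (log2 -0.36, SE 0.10, edgeR adjusted p = 1), and RRP9 that for R369W (0.61, SE 0.20, adjusted p = 1). For RRP9, knockout R369W replicate 2 was the highest of the 18 libraries, at 88.4 CPM, and this contrast is not given without it.

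Among the RNA polymerase I subunits, POLR1A, the largest, and POLR1B, the second largest, changed little. POLR1B held 214, 199 and 203 CPM in unedited EV, 224, 213 and 196 in unedited ETV6 and 203, 191 and 187 in unedited R369W cells. Its knockout values were 196, 208 and 219 CPM with EV, 204, 223 and 236 with ETV6 and 197, 198 and 196 with R369W. The R369W values lay below the ETV6 values in knockout cells (log2 -0.17, SE 0.07, edgeR adjusted p = 0.368). POLR1A ranged from 271 to 417 CPM over the 18 libraries and passed in no comparison with or without a block.

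The box C/D snoRNP, which methylates ribose in RNA, was represented by its methyltransferase FBL, the core proteins NOP56 and NOP58, and RRP9, which belongs to the U3 particle of small subunit assembly. FBL held 801, 746 and 707 CPM in unedited EV, 839, 811 and 784 in unedited ETV6 and 847, 744 and 721 in unedited R369W cells. Knockout libraries held 682, 717 and 655 CPM with EV, 734, 775 and 711 with ETV6 and 732, 943 and 722 with R369W. FBL with R369W lay above EV in knockout cells (log2 0.22, SE 0.10, edgeR adjusted p = 0.329), or 0.09 above without the 943 CPM library.

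RRP9, whose promoter window carries both motifs, was lowest in knockout EV cells. It held 62.4, 67.7 and 54.4 CPM in unedited EV, 65.5, 63.1 and 56.9 in unedited ETV6 and 54.2, 57.6 and 50.7 in unedited R369W cells. The knockout values were 48.5, 48.5 and 54.5 CPM with EV, 59.5, 66.1 and 66.3 with ETV6 and 58.8, 88.4 and 56.4 with R369W. Every knockout ETV6 and R369W library lay above every knockout EV library. With ETV6 it rose in the blocked fit (log2 0.34, SE 0.07, edgeR adjusted p = 0.00427) and did not pass without a block (SE 0.14, adjusted p = 0.328). With R369W the difference was 0.43 (SE 0.14, adjusted p = 0.27), or 0.19 without R369W replicate 2. NOP56 (324 to 440 CPM) and NOP58 (227 to 280 CPM) passed in no comparison.

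The box H/ACA snoRNP, which makes pseudouridine, was represented by its catalytic subunit DKC1 and its partners GAR1 and NHP2. NHP2 held 135, 140 and 131 CPM in unedited EV, 169, 160 and 132 in unedited ETV6 and 139, 140 and 115 in unedited R369W libraries. It fell with R369W against ETV6 in the blocked fit (log2 -0.23, SE 0.06, edgeR adjusted p = 0.0186). Its knockout values were 117, 117 and 141 CPM with EV, 118, 140 and 159 with ETV6 and 130, 217 and 127 with R369W, where the 217 CPM library was R369W replicate 2. DKC1 ranged only from 308 to 387 CPM and GAR1 from 34.8 to 60.2 CPM, and neither passed.

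Small subunit assembly held 8 members. UTP4, UTP20, WDR43, WDR75 and NOP14 belong to the early particle that cuts the precursor, and RRP12, BYSL and TSR1 act on later particles. In the blocked fits 5 of the 8 fell in unedited cells with R369W against ETV6 (6.67% of all genes), and 4 of the 8 (UTP20, RRP12, BYSL and TSR1) rose in knockout cells with ETV6 against EV (10.8% of all genes). No list of roles was tested as a set. BYSL held 83.6, 79.9 and 71.9 CPM in unedited R369W, and in knockout cells 62.9, 72.1 and 64.1 with EV, 75.5, 90.0 and 84.7 with ETV6 and 75.8, 84.0 and 73.8 with R369W. Knockout ETV6 and R369W libraries all lay above the knockout EV libraries, and with ETV6 BYSL rose in the blocked fit (log2 0.33, SE 0.06, edgeR adjusted p = 0.00312; adjusted p = 0.158 without a block). With R369W in unedited cells it fell against ETV6 (blocked log2 -0.24, SE 0.06, adjusted p = 0.00768; 0.453 without a block).

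UTP20, a large scaffold of the early particle, spread widely within groups. It held 95.8, 93.6 and 79.5 CPM in unedited EV, 113, 102 and 79.9 in unedited ETV6 and 94.9, 86.1 and 63.9 in unedited R369W libraries 2, 3 and 4. Knockout libraries held 71.2, 85.0 and 93.0 CPM with EV, 81.3, 101 and 116 with ETV6 and 74.9, 84.2 and 66.9 with R369W. Library 4 was the lowest of each unedited group, and library 4 was the highest of the knockout EV and ETV6 groups. Compared by number, UTP20 fell in unedited cells with R369W against ETV6 (log2 -0.27, SE 0.06, edgeR adjusted p = 0.00819) and rose in knockout cells with ETV6 (0.25, SE 0.06, adjusted p = 0.0101). Neither passed without a block, where the SE was 0.17.

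WDR75, of the same early particle, was steadier. It held 193, 196 and 201 CPM in unedited EV, 206, 225 and 229 in unedited ETV6 and 185, 186 and 199 in unedited R369W libraries. The knockout values were 197, 195 and 195 CPM with EV, 216, 193 and 210 with ETV6 and 200, 179 and 198 with R369W. Unedited ETV6 lay above both other vectors without overlap. The difference of R369W from ETV6 was -0.21 in both fits (SE 0.07, edgeR adjusted p = 0.221 without a block; SE 0.05, adjusted p = 0.00805 with it). UTP4 held 166, 144 and 142 CPM in unedited EV, 158, 158 and 157 in unedited ETV6 and 151, 154 and 153 in unedited R369W libraries. Its knockout values were 126, 153 and 126 CPM with EV, 138, 150 and 152 with ETV6 and 145, 110 and 136 with R369W. Under R369W every knockout value lay below every unedited value (log2 -0.23, SE 0.10, adjusted p = 0.205), and the difference was -0.12 without the 110 CPM library.

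Large subunit assembly held 10 members. With ETV6 in knockout cells 4 of the 10 rose and WDR12 alone fell in the blocked fit, against 10.8% of genes higher and 13.9% lower. WDR12, PES1 and BOP1 form the PeBoW complex, which is needed to process the large subunit RNA. WDR12 held 225, 235 and 226 CPM in knockout EV libraries, against 187, 189 and 173 CPM with ETV6 and 188, 186 and 191 CPM with R369W. Unedited cells held 211, 187 and 178 CPM with EV, 195, 206 and 193 with ETV6 and 208, 193 and 182 with R369W. Every knockout EV library lay above the other 15. With ETV6 WDR12 fell 1.25-fold in knockout cells (log2 -0.32, SE 0.07, edgeR adjusted p = 0.0345; 0.000937 with the block). Without a block the call was lost without any of the 6 libraries in turn (adjusted p = 0.0819 to 0.17), without the filter on low counts (0.0684) and in a fit of the 2 groups only (0.093). R369W gave -0.28 (SE 0.07, adjusted p = 0.194), and DESeq2 called it lower. Knockout EV exceeded unedited EV by 0.25 (SE 0.07, adjusted p = 0.0653), and passed without unedited EV replicate 2 (0.33, adjusted p = 0.0364). Exons of CARF, on the opposite strand, overlap WDR12 by 206 bases together with a pseudogene, and the strand setting of the counting is not given. Other members that passed in a blocked fit have larger overlaps. On the opposite strand these are 246 bases for PES1, 414 for NHP2, 519 for RRP12, 571 for NOP16 and 1156 for TSR1. NOP2 shares 2550 bases with a gene on its own strand.

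Its partners in the complex gave the following values. PES1 held 237, 217 and 207 CPM in unedited EV and 180, 202 and 177 CPM in knockout EV libraries (log2 -0.24, SE 0.10, edgeR adjusted p = 0.199). With ETV6 in knockout cells it held 203, 231 and 202 CPM and rose in the blocked fit (0.19, SE 0.05, adjusted p = 0.017). BOP1 held 275, 303 and 306 CPM in unedited EV, 349, 308 and 231 in unedited ETV6 and 254, 259 and 240 in unedited R369W libraries. Knockout libraries held 256, 215 and 250 CPM with EV, 222, 332 and 286 with ETV6 and 282, 503 and 248 with R369W. The difference of R369W from EV in knockout cells was 0.52 (SE 0.22, adjusted p = 0.326), or 0.14 without the 503 CPM library. LAS1L, which cuts an internal spacer of the precursor, NOP2, a methyltransferase, and NOP16 rose with ETV6 in knockout cells in the blocked fit (0.24, 0.24 and 0.20, adjusted p = 0.0186, 0.0271 and 0.0265). PPAN, RRS1, RRP1B and GNL3 passed in no comparison.

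The 7 multifunctional nucleolar proteins included the most abundant members. NPM1, a histone and ribosomal protein chaperone often mutated in leukemia, held 2485, 2158 and 2591 CPM in unedited EV, 2456, 2483 and 2734 in unedited ETV6 and 2305, 1912 and 2265 in unedited R369W libraries. The knockout values were 2474, 2113 and 2368 CPM with EV, 2079, 2105 and 2287 with ETV6 and 1890, 2095 and 2009 with R369W. R369W lay below ETV6 in unedited cells without overlap, and NPM1 fell there in the blocked fit (log2 -0.25, SE 0.06, edgeR adjusted p = 0.00541; 0.349 without a block). Under ETV6 knockout cells lay below unedited cells without overlap (-0.25, SE 0.09, adjusted p = 0.164). NPM1 has processed pseudogenes, so its counts are uncertain.

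NCL, nucleolin, held 2676, 2407 and 2378 CPM in unedited EV, 2742, 2701 and 2483 in unedited ETV6 and 2695, 2295 and 2118 in unedited R369W libraries. Its knockout values were 2427, 2502 and 2435 CPM with EV, 2369, 2534 and 2537 with ETV6 and 2347, 3173 and 2351 with R369W. The groups overlapped in unedited cells, and NCL fell with R369W against ETV6 only when libraries were compared by number (blocked log2 -0.16, SE 0.05, edgeR adjusted p = 0.0465). DDX21 in knockout cells held 714, 662 and 659 CPM with EV, 537, 622 and 595 with ETV6 and 577, 584 and 586 with R369W. Both vectors lay below the same EV libraries without overlap, so the comparisons with EV are not independent. DDX21 fell with ETV6 in the blocked fit (-0.21, SE 0.06, adjusted p = 0.0263; 0.163 without a block), and with R369W the difference was -0.22 (SE 0.07, adjusted p = 0.238).

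LYAR, a nucleolar zinc finger protein that also acts on globin genes, held 70.7, 66.9 and 76.2 CPM in unedited EV, 68.7, 75.9 and 70.6 in unedited ETV6 and 70.9, 71.1 and 70.9 in unedited R369W libraries. Knockout libraries held 73.4, 59.9 and 57.4 CPM with EV, 60.1, 60.1 and 53.6 with ETV6 and 61.1, 60.4 and 67.6 with R369W. Under ETV6 and under R369W every knockout library lay below every unedited library, and under ETV6 the difference was -0.31 (SE 0.09, edgeR adjusted p = 0.1). NOLC1, NAT10, an RNA acetyltransferase, and MYBBP1A passed in no comparison. In all, 17 of the 35 members passed with a block in at least 1 of the 4 comparisons, against 33.2% of the 11458 genes tested in all 4. Of these 17, WDR12, and MYC in another comparison, also passed without a block, and 18 members passed in none.

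Genes that work beside the members gave the clearest change in TAF1B, a subunit of the SL1 factor that brings RNA polymerase I to ribosomal DNA. TAF1B held 35.2, 29.3 and 25.0 CPM in unedited EV, 15.6, 14.2 and 14.2 in unedited ETV6 and 46.6, 34.2 and 34.1 in unedited R369W libraries. The knockout values were 37.1, 42.0 and 35.1 CPM with EV, 10.2, 13.5 and 13.3 with ETV6 and 38.1, 31.3 and 30.2 with R369W. All 6 ETV6 libraries lay below the other 12. With ETV6 TAF1B fell by 1.02 on the log2 scale in unedited cells (SE 0.16, edgeR adjusted p = 0.00894) and by 1.62 in knockout cells (SE 0.16, adjusted p = 4.39e-05). TAF1B was higher with R369W than with ETV6, by 1.38 in unedited (SE 0.16, adjusted p = 2.03e-04) and 1.43 in knockout cells (SE 0.16, adjusted p = 2.36e-04). Of the 14 further polymerase I genes tested, TAF1D, of the same factor, also fell with ETV6 in knockout cells (-0.56, SE 0.10, adjusted p = 0.00861), and the median of the 14 was 0.01.

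**Figure D4:**
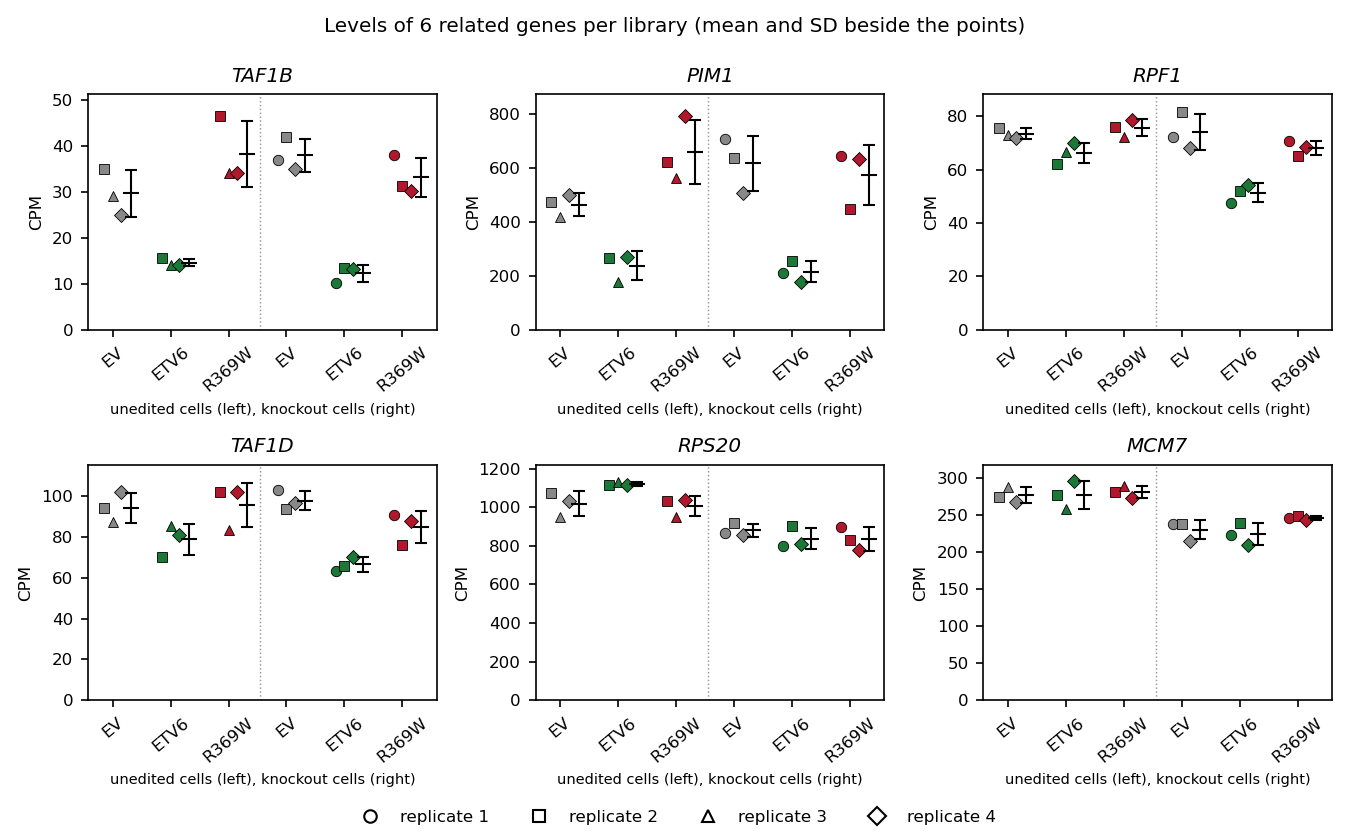
CPM per library (points, shaped by replicate number) with mean and SD (bars) of 6 genes outside the list, TAF1B, PIM1, RPF1, TAF1D, RPS20 and MCM7, in the 6 groups. TAF1B and PIM1 are lower in the 6 ETV6 libraries than in the other 12, and RPS20 and MCM7 are lower in knockout than in unedited cells. Without a block RPS20 did not pass between genotypes under EV, nor MCM7 under R369W.

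In the MYC network, MAX and the other partners and antagonists tested did not pass in the fits without a block, apart from PIM1 and MYCL. PIM1, a kinase that stabilizes MYC protein, held 475, 419 and 499.5 CPM in unedited EV, 267, 177 and 271 in unedited ETV6 and 624, 563 and 793 in unedited R369W libraries. Its knockout values were 709, 638 and 506 CPM with EV, 212, 255 and 179 with ETV6 and 646, 447 and 632 with R369W. The ETV6 libraries lay below all others. PIM1 fell with ETV6 in knockout cells by 1.52 (SE 0.20, edgeR adjusted p = 5.29e-04) and, in the blocked fit, in unedited cells by 0.98 (SE 0.08, adjusted p = 3.29e-07). It was higher with R369W than with ETV6 by 1.47 in unedited (SE 0.20, adjusted p = 9.32e-04) and 1.42 in knockout cells (SE 0.20, adjusted p = 0.00134). MYCL, a relative of MYC, was at 0.410 to 0.698 CPM in unedited and 1.16 to 2.37 CPM in knockout R369W libraries and was higher in the knockout (1.67, SE 0.42, adjusted p = 0.038).

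The 22 MYC targets outside the nucleolus (metabolic enzymes, chaperones and translation factors) had 0 of 22 past the threshold by edgeR without a block in any of the 9 pairs of groups (0 to 3 higher and 0 to 4 lower at an unadjusted p under 0.05). In the blocked fits 4 of 22 rose in unedited cells with ETV6 (2.66% of all genes) and 6 of 22 fell there with R369W against ETV6 (6.67%). In knockout cells with ETV6 8 of 22 rose (10.8%) and 1 fell (13.9%). HSPE1, a mitochondrial co-chaperone, held 174, 187 and 167 CPM in knockout EV and 253, 246 and 262 CPM in knockout ETV6 libraries (blocked log2 0.53, SE 0.06, adjusted p = 5.3e-05). NME1, a nucleotide kinase, held 46.8, 59.5 and 56.2 CPM in knockout EV and 84.5, 80.9 and 89.8 CPM in knockout ETV6 libraries (blocked log2 0.66, SE 0.08, adjusted p = 1.34e-04). In both genes the 2 groups did not overlap.

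Assembly factors outside the list were counted in the same fits. Of 42 further small subunit factors, 40 were below 0 with R369W against ETV6 in unedited cells (median -0.15), and 11 fell and 0 rose in the blocked fit (6.67% of all genes lower and 10.2% higher). With ETV6 in knockout cells 9 of 42 rose and 1 fell with the block (10.8% of all genes higher and 13.9% lower). Of 50 further large subunit factors tested, 13 fell and 2 rose in the blocked fit of R369W against ETV6 in unedited cells, and 9 rose and 5 fell in that of ETV6 against EV in knockout cells. Without a block RPF1 and MAK16 were the 2 of the 50 called in the last comparison. RPF1, a Brix-domain protein, held 72.4, 81.5 and 68.2 CPM in knockout EV and 47.5, 52.1 and 54.4 CPM in knockout ETV6 libraries, and it fell without a block (log2 -0.53, SE 0.08, edgeR adjusted p = 0.00201). RPF1 was higher again with R369W than with ETV6 in knockout cells (0.41, SE 0.08, adjusted p = 0.0196). MAK16 fell with ETV6 in knockout cells (-0.37, SE 0.09, adjusted p = 0.0408).

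Ribosomal protein genes lay lower in knockout than in unedited cells, and few passed the test. Under ETV6, 79 of 79 were below 0 in knockout against unedited cells (51.0% of all genes), with a median of -0.22, and 6 of 79 fell, against 0.710% of genes lower. RPS20 held 1113, 1133 and 1117 CPM in unedited ETV6 and 801, 903 and 811 CPM in knockout ETV6 libraries (log2 -0.42, SE 0.07, edgeR adjusted p = 0.00637). Under EV 74 of 79 were below 0 (median -0.11), where edgeR called 0 (13 lower at an unadjusted p under 0.05; 1.02% of genes called lower), and under R369W 65 of 79 (median -0.12), where RPS20 and RPS29 fell (adjusted p = 0.0486 and 0.0239; 1.59% of genes called lower). They also leaned with the vector: 75 of 79 were above 0 for ETV6 against EV in unedited cells and 65 of 79 for R369W against ETV6 in knockout cells, where edgeR called 0 (0 and 4 higher at an unadjusted p under 0.05). Against most members, 58 of 79 were above 0 for R369W against EV in unedited cells. So were 51 of 79 below 0 for ETV6 against EV in knockout cells. With most members, 50 were below 0 for R369W against ETV6 in unedited cells, and 49 above 0 for R369W against EV in knockout cells. These genes have many pseudogenes, and their counts carry that uncertainty.

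Beyond the group means, most members moved together from library to library. After each group's mean log2 CPM was taken out, 25 of 35 members (71.4%) correlated above 0.5 with the mean of the other members over 18 libraries, against 17.1% of the 12227 other genes. The median r was 0.76, against -0.02. BYSL (0.92), RRP12 (0.91) and POLR1A (0.90) followed the rest most closely. The correlations share libraries, depth and scaling, so they are descriptions. WDR75 ran opposite to the others (-0.87), and MYC was at -0.19, or 0.39 without knockout R369W replicate 2, whose MYC was the lowest and many other members the highest. Without that library 26 of 35 members were above 0.5.

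**Figure D5:**
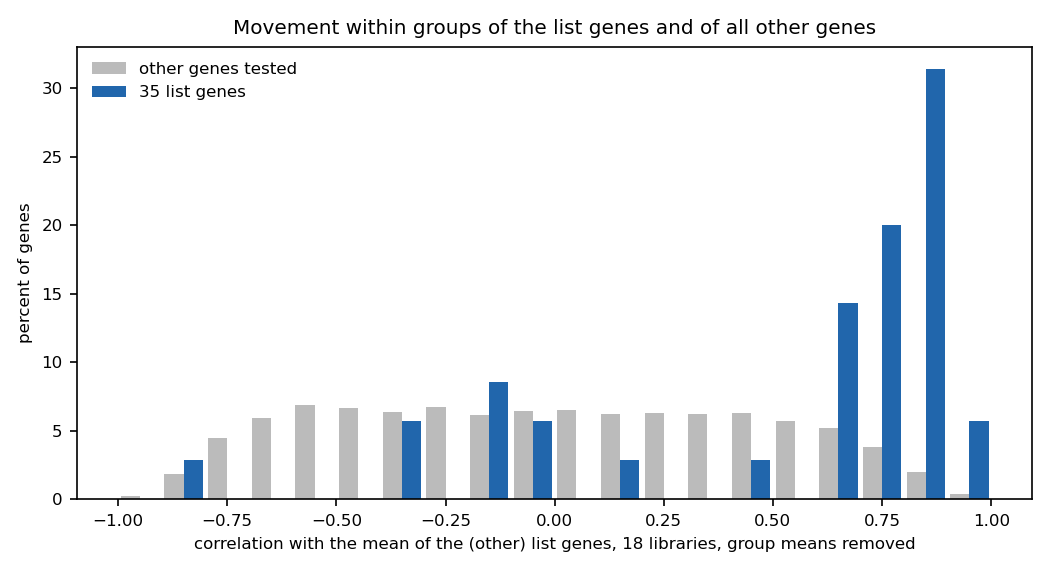
Distribution of the correlation of each gene with the mean of the list genes (for a member, of the other members) over 18 libraries after group means were removed; y is the percent of genes per bin of r. Members (blue) pile up above 0.5 (71.4%), where 17.1% of other genes (grey) lie, and 8 members are below 0.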

How the data were processed

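Per the labels' protocols, TRIzol RNA went into the TruSeq stranded mRNA kit. The deposited values are unnormalized read counts per gene in 18 libraries; HISAT2, SAMtools, HTSeq and GRCh38 are named in the submitters' processing notes without versions or a strand setting. Reads given to no gene were 34.4% to 41.6% of each library and were left out. Symbols came from a gene name table (20801 of 20833 identifiers) and GENCODE 29 (31 more), which also gave exon lengths.

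Counts were filtered with filterByExpr, scaled by TMM and fitted with edgeR 4.0.16 (R 4.3.3): 6 group means over 18 libraries, two-sided quasi-likelihood F test, Benjamini-Hochberg over all genes tested, threshold 0.05. The SE was obtained from F (absolute log2 difference over root F). The exact permutation test of 3 against 3 libraries cannot pass this threshold and was not used. Blocked fits took only the libraries that the replicate numbers paired: across all genes, deviations from group means correlated at 0.648 to 0.827 between same-numbered unedited libraries (-0.549 to 0.020 otherwise) and at 0.751 to 0.835 between same-numbered knockout EV and ETV6 libraries (-0.606 to -0.124). Knockout R369W libraries correlated at -0.573 to -0.152 with their namesakes and at up to 0.848 with other numbers. R369W 1 went with EV 2 and ETV6 2 (0.848 and 0.816), and R369W 2 with EV 4 and ETV6 4 (0.777 and 0.742). R369W 4 went with EV 1 and ETV6 1 (0.732 and 0.718), and all other pairs were below 0. Whether the numbers of this group are crossed was not tested. On simulated data for knockout ETV6 against EV (12262 genes), the fit without a block called 6% of genes changed 1.25-fold, 40% at 1.5-fold and 94% at 2-fold.

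Alternatives were DESeq2 1.42.0, RLE scaling, no filter, 2 groups only, each library left out, and blocks. The members and the related lists were chosen with earlier results of these data known. Values in every library are given for MYC, NCL, NPM1 and FBL, for members past the threshold, and for up to 2 members (4 with a block) with the smallest p per comparison; from related lists, up to 3 genes past the threshold per comparison. PES1 was added after its values were seen. The table held none of 12 snoRNA host genes listed.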

Additional observations from a re-analysis of the deposited data

How the results depend on the processing

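Without a block, RLE scaling kept every count of members called, and the member medians moved by no more than 1 SD between replicates (0.07 to 0.10 on the log2 scale), a spread about as large as the medians themselves. Leaving out 1 library moved the median of ETV6 against EV in unedited cells from 0.03 to 0.13, that of R369W against EV from -0.10 to 0.0015, that between genotypes under EV from -0.14 to -0.06, and that of the ETV6 effect in knockout minus unedited cells from -0.01 to 0.09. In knockout cells with ETV6 against EV, 1 member passed, against 0 without the filter on low counts, 0 in a fit of the 2 groups only, 0 when any 1 library was left out, 2 with DESeq2, 12 with the replicate block over the 6 paired libraries (2 to 12, that is 2, 11 and 12, leaving out a number) and 0 with a block over all 9 knockout libraries, whose R369W numbers did not pair. DESeq2 called 2 members in knockout R369W against EV and 2 between genotypes under EV, where leaving out a library gave 0 to 1. With the replicate block in unedited cells 1 member passed for ETV6 against EV (0 to 1 leaving out a number), 1 for R369W against EV (0 to 1) and 9 for R369W against ETV6 (0 to 9, with 7 and 9 as the other values). Across genotypes only 2 numbers are shared, too few to show pairing (deviations of same-numbered EV libraries correlated at 0.406 and 0.459), and a block over all 18 libraries gave 3 members under EV (MYC, PES1 and WDR12) and 1 under ETV6 (NPM1). Blocks within genotype gave 0 calls in the tests of a difference between genotypes.

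For MYC, the blocked log2 difference was -0.36 for unedited R369W against EV (-0.41 to -0.31 leaving out a number), -0.29 for R369W against ETV6 (-0.37 to -0.24) and 0.22 for knockout ETV6 against EV (0.11 to 0.35). Leaving out a library gave -0.69 to -0.54 between genotypes under EV, -0.18 to 0.17 for knockout R369W against EV, and -0.10 to 0.25 for R369W against ETV6 in knockout minus unedited cells, so the last 2 had no stable direction.

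Counts over all genes moved by over 1.5 times in several fits. DESeq2 called 87, 14 and 287 genes in the 3 unedited comparisons (37, 3 and 147 by edgeR), 403, 182 and 349 in the knockout comparisons (224, 7 and 151) and 891, 731 and 983 between genotypes (531, 310 and 513), and 13, 14 and 0 in the differences between genotypes (3, 5 and 0). Fits of 2 groups only called 2, 1 and 35, then 131, 0 and 73, then 211, 80 and 89. The blocked fits called 956, 251 and 1980 in unedited cells and 2904 in knockout ETV6 against EV, and the block over 9 knockout libraries called 97, 0 and 75, and that over 18 libraries 979, 1002 and 1591 between genotypes. At 12577816 to 18927506 reads per library and 3 libraries per group, changes of 1.25-fold, which few member differences exceeded, were mostly missed by the fit without a block on simulated data.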
